A study of Mus musculus with 13 samples.

Results

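The regions described here were stretches of the mouse genome at which oligodendrocyte progenitor cells (OPCs) carried overlapping H3K4me3 and H3K27me3 peaks, and at which neural stem cells (NSCs) had an H3K4me3 peak but no listed H3K27me3 peak. Each pair of OPC H3K4me3 and H3K27me3 peaks that overlapped by at least 1 bp was merged into a bivalent domain. Of the 2069 OPC bivalent domains, 789 (38.1%, exact binomial 95% interval 36.0 to 40.3) met this rule and are called gained domains below. Another 853 lay over both NSC marks and are called kept domains, 130 lay over NSC H3K27me3 alone and 297 over neither NSC mark. The gained domains were defined by the measured NSC and OPC peak calls, so their NSC and OPC values are a description, whereas the marks of newly formed oligodendrocytes (NFOs), the OLIG2 peaks, the position of the genes and the DNA sequence were not used to choose them.

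Chromatin immunoprecipitation sequencing (ChIP-Seq) was done with 1 library for each mark and cell type, all from untreated cells. NSCs were purchased as a culture made from the cortex of E14.5 CD-1 mice, although their strain label reads C57BL/6. OPCs and NFOs were immunopanned from brains of postnatal day 7 C57BL/6 mice, first on plates against PDGFRα and then on plates against GalC, after microglia and endothelial cells had been removed. Cell type, strain (where the methods and the label differ), age, culture and, for H3K4me3 and H3K27me3, single-end reads in NSCs against paired-end reads in OPCs and NFOs therefore cannot be told apart in any NSC to OPC comparison. There were no replicates, so no test between cell types was possible, and every interval below is an exact binomial (Clopper-Pearson) one that covers counting error only.

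H3K4me3 is laid down by trithorax-group methyltransferases at the start sites of active and poised genes, and H3K27me3 is laid down by Polycomb repressive complex 2 at genes that are held silent. A region with both marks is called bivalent. Bivalency was first described at developmental genes of embryonic stem cells, where the genes are silent but can be switched on in 1 lineage and shut in others. Bulk ChIP-Seq cannot separate chromatin that carries both marks from a mixture of cells or alleles that carry 1 mark each.

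The antibody labels of the H3K4me3 and H3K27me3 libraries named the opposite mark to the sample titles, and the titles were used. By title, 45.9%, 73.7% and 45.1% of the H3K4me3 peaks of NSCs, OPCs and NFOs lay within 1 kb of a transcription start site (TSS), against 8.36%, 14.9% and 21.7% of the H3K27me3 peaks. All 6 OPC markers checked (Pdgfra, Cspg4, Olig1, Olig2, Sox10 and Gpr17) had H3K4me3 and none had H3K27me3 in OPCs, and all 5 NSC markers had H3K4me3 in NSCs. However, 5 of the 6 OPC markers also had H3K4me3 in NSCs and all 5 NSC markers in OPCs, so these genes did not tell the 2 cell types apart. None of the oligodendrocyte markers Mbp, Mag, Mog, Myrf and Opalin had a listed H3K4me3 peak within 2 kb of a TSS in NFOs. In NFOs 5 of the 6 OPC markers had such a peak, and Opalin had H3K27me3, so the NFO lists went against their label at these genes. Mbp and Myrf had listed H3K4me3 in both NSCs and OPCs. An unlisted peak does not show that a mark was absent, and the cause was not tested. Of 4 microglial markers only Csf1r had H3K4me3 in OPCs, none of 3 endothelial markers did, and the astrocyte markers Slc1a3 and Gja1 had both marks there. Of 4 neuronal markers, Snap25 and Syt1 had H3K4me3 without H3K27me3 in OPCs, and 3 (Tbr1, Snap25 and Syt1) had H3K4me3 in NFOs. The part of any other cell type in the gained domains was not tested.

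Among the gene lists, that of neural stem cell and early progenitor genes had the highest share of its genes at gained domains. Stretches shared by the OPC marks are therefore shown for 4 of its 5 genes that lay there. They are 120 bases from the plus strand of mm10 (GRCm38), chosen near the middle of the longest shared stretch so that no annotated untranslated sequence was included, with CG dinucleotides in capitals. The Pax6, Igf2bp2, Gli3 and Nr2e1 windows were intronic.
Pax6 (chr2:105688935-105689054): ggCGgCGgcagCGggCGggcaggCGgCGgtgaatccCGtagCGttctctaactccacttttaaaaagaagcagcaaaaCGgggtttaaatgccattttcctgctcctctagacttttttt
Igf2bp2 (chr16:22161451-22161570): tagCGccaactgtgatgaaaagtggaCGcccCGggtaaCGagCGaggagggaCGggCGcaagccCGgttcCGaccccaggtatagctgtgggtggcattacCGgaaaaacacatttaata
Gli3 (chr13:15465010-15465129): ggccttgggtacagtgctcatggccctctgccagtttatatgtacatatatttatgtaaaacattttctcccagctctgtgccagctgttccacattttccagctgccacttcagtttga
Nr2e1 (chr10:42581494-42581613): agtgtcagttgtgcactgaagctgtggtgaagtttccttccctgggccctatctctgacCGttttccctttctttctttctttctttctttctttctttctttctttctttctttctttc
The Igf2bp2 and Pax6 windows held 10 and 9 CG dinucleotides, the Nr2e1 window 1 and the Gli3 window 0. The Nr2e1 window ended in a run of the repeat TTTC, inside an H3K27me3 peak of 224 bp. CG content thus differed widely among these 4 windows, which do not stand for their whole domains.

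Across the gained domains the OPC H3K4me3 peaks were CG rich. The observed over expected CG ratio of the widest H3K4me3 peak had a median of 0.659 (quartiles 0.486 and 0.775, n = 788 domains on assembled chromosomes). It was 0.658 in kept domains (n = 845) and 0.693 in 12858 OPC H3K4me3 peaks that lay over NSC H3K4me3 with no H3K27me3 peak in either cell type, called K4-only peaks below (12876 with those on other sequences). A ratio above 0.6 was found in 60.8%, 59.8% and 69.9% of them, in the same order. Gained and kept domains were thus close in CG ratio, and both lay a little below the K4-only peaks.

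Gained domains had narrower H3K27me3 than kept domains. Their width had a median of 1531 bp (182 to 13533). The OPC H3K4me3 in them had a median width of 988 bp, the H3K27me3 of 586 bp and the stretch shared by both marks of 210 bp (1 to 6002). H3K27me3 covered a median of 25.7% of the H3K4me3 width, against 79.8% in kept domains. The widest H3K27me3 peak was under 500 bp in 351 gained domains (44.5%, 41.0 to 48.0) and at least 1 kb in 215 (27.2%, 24.2 to 30.5), against 21.6% and 60.5% of kept domains. In the 297 domains over neither NSC mark H3K27me3 was narrower still, with a median of 483 bp, 50.8% under 500 bp and 19.9% of at least 1 kb. These OPC values belong to the peaks that chose the domains.

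The outer limits of H3K27me3 lay inside those of H3K4me3 in 254 gained domains (32.2%), reached past both edges in 139 (17.6%) and past 1 edge in 396 (50.2%). In kept domains the first and second shares were 16.5% and 44.8%. A single peak of each mark made up 753 of the 789. Fold enrichment over input, the measure the peak caller gives for each peak, had a median of 7.20 for NSC H3K4me3, 5.72 for OPC H3K4me3 and 4.51 for OPC H3K27me3 at gained domains, where the OPC H3K27me3 median of kept domains was 6.09. Fold enrichments depend on the depth and input of each library and are not compared between libraries.

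**Figure D1:**
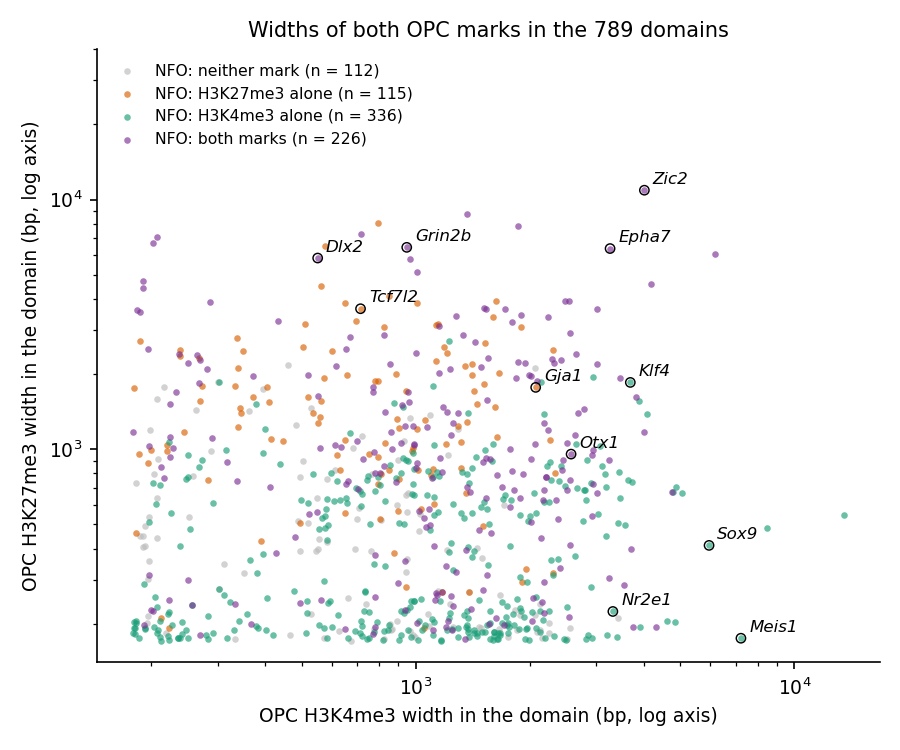
Width of OPC H3K27me3 against width of OPC H3K4me3 in each of the 789 gained domains, in bp on log axes, coloured by the marks listed in NFOs. Domains with H3K4me3 alone in NFOs (n = 336) crowd along the bottom at a median H3K27me3 width of 258 bp, whereas those with H3K27me3 alone (n = 115) have a median of 1320 bp.

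The rule turns on the absence of a listed NSC H3K27me3 peak, and the nearest one lay a median of 17067 bp away (20 to 567700). It was within 1 kb of 43 gained domains and within 5 kb of 189. The narrowest H3K27me3 peak listed was 274 bp in NSCs and 171 bp in OPCs. At gained domains the widest OPC H3K27me3 peak had a lower quartile of 222 bp, narrower than any listed NSC peak. The part of this difference in the absence was not tested. Just inside the rule were a domain 9030 bp from the Rpn1 TSS with an NSC H3K27me3 peak 20 bp away, the Utp6 domain (31 bp), a domain on chromosome 1 (47 bp), and the domains of the apoptosis inhibitor gene Bcl2 (51 bp) and of Sync (56 bp). Just outside were the domains of Ly6h, which overlapped an NSC H3K27me3 peak by 46 bp, of the serotonin receptor gene Htr1b (64 bp), near Aff1 (73 bp) and near Rab11fip1 (77 bp), and of Sptbn4 (82 bp). At the other limit, the OPC marks shared 1 bp at Marveld3, 3 bp at the Wnt receptor gene Fzd4, 7 bp at Car2, which encodes a carbonic anhydrase of oligodendrocytes, and 8 bp at both Akain1 and Mid2. Only 542 gained domains had all 3 defining marks past the filter in the study's methods (FDR below 0.05, fold enrichment above 3.5). OPC H3K27me3 met it least often, in 595, against 757 for OPC H3K4me3 and 728 for NSC H3K4me3.

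Most gained domains were at gene starts. A TSS of a protein-coding or lncRNA gene lay within 2 kb of 624 of them (79.1%, 76.1 to 81.9) and inside 508 (64.4%, 60.9 to 67.7). The share within 2 kb was 79.6% for kept domains and 89.6% for K4-only peaks. Of the 165 gained domains with no TSS within 2 kb, 72 lay in a gene body and 93 outside genes. They were found on every autosome, most often on chromosome 2 with 84 and chromosome 11 with 65, and 15 were on the X chromosome.

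Gained domains reached the TSS of 814 genes, of which 589 were protein-coding and 225 lncRNA. That was 1.88% of all 43193 annotated genes, 2.68% of protein-coding genes and 4.5% of the 13055 protein-coding genes with H3K4me3 within 2 kb of a TSS in both NSCs and OPCs. Kept domains reached 968 genes, and 33 genes had a domain of each kind. Of the 814 genes, 127 (15.6%) still had an NSC H3K27me3 peak within 2 kb of some TSS, so that at these the absence held for the domain and not for every start of the gene. More than 1 gained domain was found at 20 genes.

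Neural stem cell and early progenitor genes were the listed group with the highest share at gained domains, 5 of the 29 with H3K4me3 in NSCs and OPCs (17.2%, beside 4.5% of all such protein-coding genes). Another 13 of the 31 listed genes lay at kept domains. Pax6, a homeobox factor of cortical progenitors, had 3 gained domains. The 1 with the longest overlap (chr2:105688044-105691862) lay 620 bp from a Pax6 TSS and shared 1543 bp between marks, with a fold enrichment of 3.63 for NSC H3K4me3, 7.42 for OPC H3K4me3 and 5.91 for OPC H3K27me3. In NFOs both marks were still listed, that is, a peak of each lay over the domain, H3K4me3 at 8.68 and H3K27me3 at 5.29, with 1351 bp shared. Both NFO marks were listed at all 3 Pax6 domains.

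At Otx1, a forebrain patterning homeobox gene, H3K27me3 of 956 bp lay inside H3K4me3 of 2572 bp. NFO H3K4me3 was 4.33 and NFO H3K27me3 4.71 by fold enrichment there. Igf2bp2, which encodes an RNA-binding protein of fetal progenitors, and Gli3, the main repressor of hedgehog target genes, shared 730 and 654 bp in OPCs and also had both marks in NFOs. Nr2e1 encodes the nuclear receptor Tlx, which maintains neural stem cells. Its H3K4me3 was 3316 bp wide but its H3K27me3 only 224 bp, and NFOs listed H3K4me3 alone. Thus 4 of these 5 genes had both marks listed in NFOs at a gained domain, and at all of them but Igf2bp2 the NFO marks overlapped each other.

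Signalling genes of the Wnt, BMP, hedgehog and FGF pathways came next, with 8 of 52 (15.4%). The ligand gene Wnt11 had 2 gained domains, at fold enrichments of 5.38 and 3.45 for OPC H3K27me3, and both had H3K27me3 alone in NFOs at 3.94 and 3.81. The receptor gene Fzd10 had OPC H3K4me3 at 13.6 and H3K27me3 at 7.47, and in NFOs H3K4me3 at 29.5, H3K27me3 at 4.94 and an OLIG2 peak at 18.1. Fgf10, Wnt5a and the receptor gene Fzd7 also had both marks in NFOs, which at Fgf10 did not overlap each other. Bmp2 kept H3K4me3 alone, and the ligand gene Wnt9a and the BMP receptor gene Bmpr1b had neither mark. The group therefore held every NFO state.

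Genes of axon guidance, adhesion and extracellular matrix contributed 9 of 66 (13.6%), and growth factors and their receptors 4 of 30 (13.3%). Lamb1, a laminin chain gene, had H3K27me3 over 3851 bp that covered all 652 bp of its H3K4me3 in OPCs. In NFOs it had H3K27me3 alone at a fold enrichment of 5.60. The ephrin receptor gene Epha3 and the netrin receptor gene Unc5b likewise had H3K27me3 alone in NFOs, at 5.24 and 5.26. The other netrin receptor gene, Unc5c, had H3K4me3 alone at 12.7, as did Sema3a and Ntn1, which encode secreted guidance cues. Tnc (tenascin C, a matrix protein of progenitor niches), Epha7 and Cntnap2 had both. Among growth factor genes the NFOs listed H3K4me3 alone at Vegfa and Lif, H3K27me3 alone at the hepatocyte growth factor receptor gene Met, and neither mark at Bdnf.

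Astrocyte genes showed 2 of 13 (15.4%) and none at kept domains. Gja1, the gap junction gene connexin 43, had OPC H3K4me3 at a fold enrichment of 4.03 over 2074 bp and OPC H3K27me3 at 10.6 over 1769 bp (chr10:56377964-56380949). NSC H3K4me3 there was 9.20, and NFOs listed H3K27me3 alone at 3.35. Sox9, a gliogenic factor shared by NSCs and astrocytes, had a 412 bp H3K27me3 peak inside 5951 bp of H3K4me3 and kept H3K4me3 alone in NFOs at 10.6. Both genes are also used by NSCs, and with 2 genes the share has little weight.

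Patterning genes mostly lay at domains that had both marks already in NSCs. Of the 79 listed homeobox and other patterning factors, 60 lay at kept domains, at 59 of which the NSC marks overlapped each other, and 4 at gained ones (Zic2, Zic5, Gbx2 and Meis1), which was 7.69% of the 52 with H3K4me3 in both cell types. Zic2, a zinc finger factor of the dorsal midline, had the widest of these, with H3K27me3 of 10901 bp in all and 2336 bp shared (chr14:122469524-122482104). It kept both marks in NFOs, at 9.10 for H3K4me3 and 5.57 for H3K27me3. Meis1 had 7224 bp of H3K4me3 with a single 175 bp H3K27me3 peak inside. Likewise 22 of 36 proneural and neuronal factors lay at kept domains and 3 at gained ones. Of these, Dlx2, a factor of forebrain interneurons, and Ebf1 had both marks in NFOs (at Ebf1 without overlap), and Myt1l, a neuronal zinc finger factor, had H3K4me3 alone. The Dlx2 domain lay 273 bp from an NSC H3K27me3 peak and the Myt1l domain 846 bp.

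Ion channel and receptor genes showed 4 of 53 (7.55%), Polycomb and trithorax genes 2 of 32 (6.25%) and cell cycle genes 1 of 24 (4.17%), shares near the background of 4.5%. At Grin2b, a subunit of the NMDA receptor, 6436 bp of H3K27me3 covered the whole of a 947 bp H3K4me3 peak and both marks were listed in NFOs. The metabotropic glutamate receptor gene Grm3 had both marks in NFOs, and the sodium channel gene Scn8a had H3K4me3 alone. The Polycomb genes were Cbx7, with a narrow OPC H3K27me3 peak of 261 bp at 11.7, and Bmi1, and the cell cycle gene was the CDK inhibitor Cdkn2b. None of the 22 OPC identity genes with H3K4me3 in both cell types and none of 6 such microglial and endothelial genes lay at a gained domain. Of 17 myelin and differentiation genes 2 did (11.8%). Tcf7l2, a Wnt effector needed for oligodendrocyte differentiation, had 3654 bp of OPC H3K27me3 at 6.16 over the whole of a 715 bp H3K4me3 peak, and in NFOs H3K27me3 alone at 2.95. Car2 had neither mark in NFOs.

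**Figure D2:**
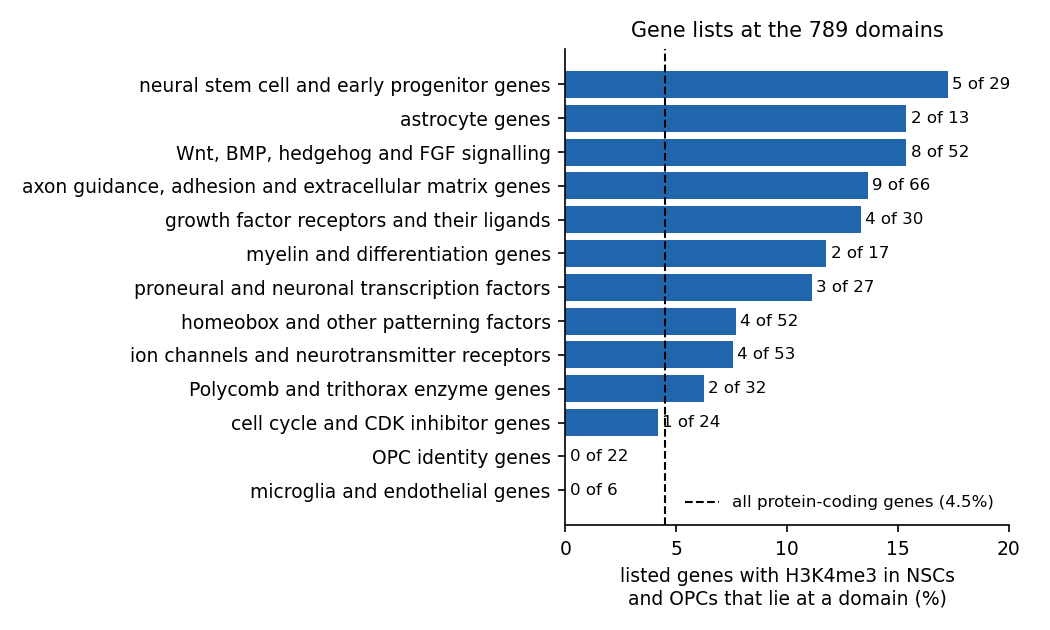
Share of each list's genes with H3K4me3 within 2 kb of a TSS in both NSCs and OPCs that lay at a gained domain, in percent, with the counts at the bar ends. The dashed line is the 4.5% of all such protein-coding genes. Each bar rests on at most 9 genes. The lists were chosen with earlier results of these data known, and no list was tested against the line.

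The longest overlaps of the OPC marks gave a mixed set of genes. The longest, 6002 bp at AY036118, Gm26917 and Gm42418 on chromosome 17, lay at genes whose sequence resembles multi-copy ribosomal DNA, where read placement is uncertain, and its NSC H3K4me3 was only 1.77. Gm11290 on chromosome 13 followed with 2539 bp and then Zic2. An unnamed domain in the Camkmt gene (chr17:85393583-85395885) shared 2279 bp and had an NFO OLIG2 peak at 14.3. The stress kinase gene Map2k6 shared 1945 bp, Tgif1, a homeobox corepressor of TGFβ signalling, 1895 bp, and Mir124-2hg, the host gene of a neuronal microRNA, 1860 bp. Next came the pluripotency factor gene Klf4 (1852 bp), Pax6, the lncRNA gene Gm52870 within Foxp1 (1536 bp), Sncaip (1533 bp) and Egr4, an immediate early factor gene (1486 bp). All 12 but Klf4 had both marks in NFOs, whereas Klf4 had H3K4me3 alone at 8.66.

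In NFOs, 562 gained domains had H3K4me3 (71.2%, 67.9 to 74.4) and 341 had H3K27me3 (43.2%, 39.7 to 46.8). Both marks were listed at 226 (28.6%, 25.5 to 31.9), H3K4me3 alone at 336 (42.6%), H3K27me3 alone at 115 (14.6%) and neither at 112 (14.2%). Both marks here means a peak of each over the domain. The NFO peaks overlapped each other, as bivalency was defined in OPCs, at 200 of the 226 (25.3% of gained domains, 22.3 to 28.5) and at 491 kept domains (57.6%, 54.2 to 60.9). Over all 2069 OPC bivalent domains the shares with H3K4me3, with H3K27me3 and with both were 71.6%, 55.2% and 39.8%. Gained domains were thus near the background for H3K4me3 and below it for H3K27me3. The shares were 81.8%, 74.8% and 60.6% at kept domains, and the intervals of gained and kept domains did not overlap for any of the 3. At the 297 domains over neither NSC mark they were 55.6%, 30.3% and 16.5%. At the 130 over NSC H3K27me3 alone they were 43.8%, 56.2% and 24.6%. A share of NFO H3K27me3 below the background was thus not particular to gained domains. An unlisted NFO peak does not show that a mark was lost. Listed NFO H3K4me3 peaks had a median width of 255.5 bp, against 987 bp in OPCs.

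K4-only peaks, measured over the H3K4me3 peak alone, had NFO H3K4me3 in 61.8% (60.9 to 62.6) and NFO H3K27me3 in 0.901% (0.745 to 1.08). Measured the same way, gained domains had them in 70.2% and 37.9% (34.5 to 41.4). Neither NFO mark was listed at 37.7% of the K4-only peaks. The H3K27me3 that set gained domains apart in OPCs was therefore also listed in the separate NFO library at many of them, and at few of the K4-only peaks. OPCs and NFOs were panned from brains of 1 age, and the labels do not say whether they came from the same animals.

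**Figure D3:**
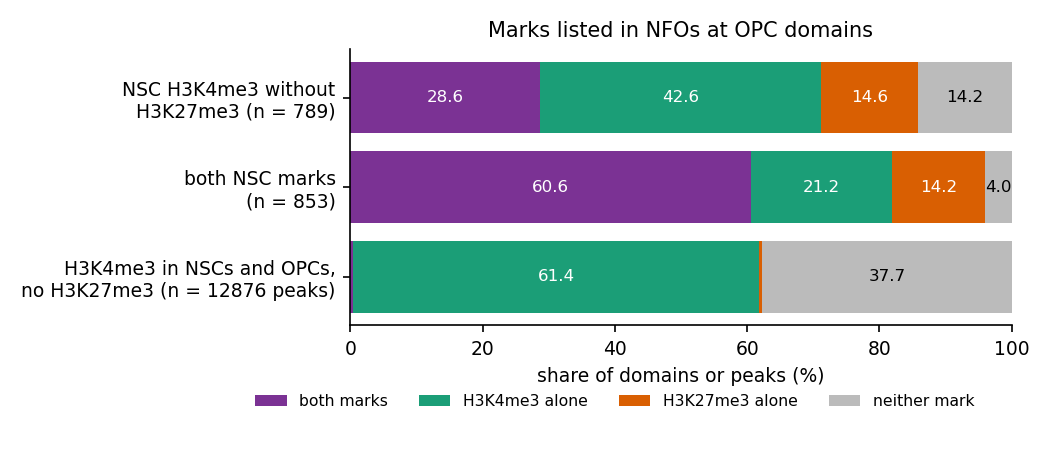
Share of gained domains, kept domains and K4-only peaks with both marks, H3K4me3 alone, H3K27me3 alone or neither listed in NFOs, in percent. Both marks take 28.6% of gained and 60.6% of kept domains, and H3K27me3 is hardly seen in the K4-only bar, which was measured over the H3K4me3 peak and not a merged domain.

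NFO H3K27me3 followed the width of the OPC peak. It was listed at 21.9% (17.7 to 26.6) of the 351 gained domains whose widest OPC H3K27me3 peak was under 500 bp, at 38.1% (31.7 to 44.8) of the 223 with 500 bp to 1 kb and at 83.3% (77.6 to 88.0) of the 215 with 1 kb or more. In kept domains the shares were 39.1%, 51.0% and 94.6%. NFO H3K4me3 went the other way in gained domains, at 76.9%, 75.8% and 57.2%. NFO H3K27me3 was thus listed more often at kept domains in each width class. The intervals did not overlap under 500 bp (32.0 to 46.6 in kept domains) or from 1 kb (92.3 to 96.4). Widths were not matched within a class, and the top class has no upper limit. Over all classes the widest OPC H3K27me3 peak had a median of 1601 bp in kept and 578 bp in gained domains. Marks were counted over the merged domain, which includes that peak, and the part of width in the gap was not tested.

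A run of at least 12 A or T bases lay in the central 200 bp of the widest H3K27me3 peak in 65 of the 351 narrow gained domains (18.5%), 8.56% of those of intermediate width and 3.26% of the 215 wide ones. The shares were 20.3%, 12.6% and 6.05% in kept domains, in the same order. Over all widths a run was found in 11.5% of gained domains (9.40 to 14.0) and 12.5% of the 27235 OPC H3K27me3 peaks outside bivalent domains, against 2.38% of 200 bp windows set every 20 kb along the genome. The runs were thus about as common at H3K27me3 peaks in general as at gained domains. Without the domains that had such a run at either OPC mark, 670 gained domains were left and NFO H3K27me3 was listed at 47.3% of them, a setting chosen after seeing the data. The part of these runs in the peak calls was not tested.

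**Figure D4:**
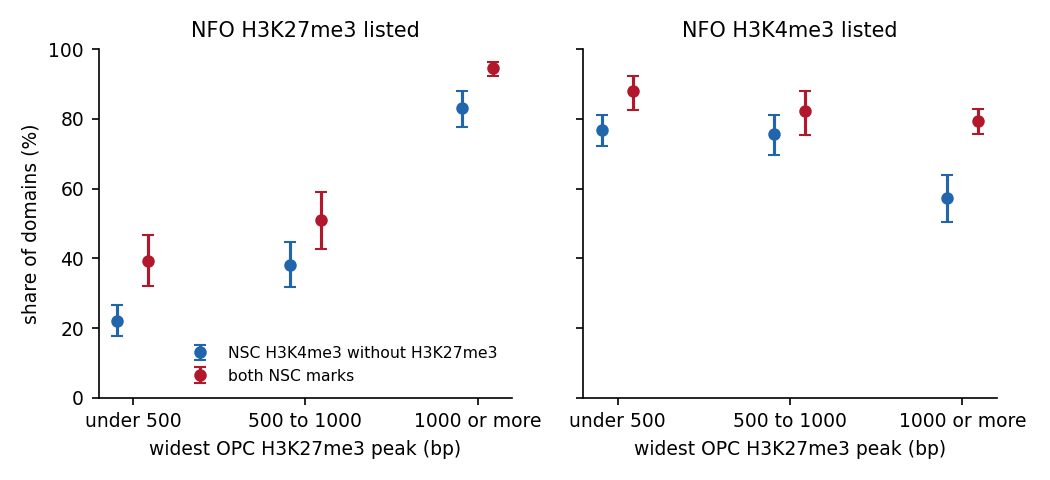
Share of domains with H3K27me3 (left) or H3K4me3 (right) listed in NFOs, in percent, by the width in bp of the widest OPC H3K27me3 peak, for gained domains in blue and kept domains in red. Bars are exact binomial 95% intervals, and NFO H3K27me3 climbs from 21.9% to 83.3% across the gained domains.

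The domains that had both marks in NFOs with the longest overlap there were that of AY036118 (6194 bp shared in NFOs), a domain on chromosome 16 (chr16:91140204-91141896, 1499 bp), Pax6 (1351 bp), Atrnl1 (1332 bp), Mir124-2hg (1055 bp), Tgif1 (1014 bp), Dlx2 (1008 bp) and Gm11290 (944 bp). Those with H3K27me3 alone and the widest NFO peak were Skap2, beside the Hoxa cluster, with 15915 bp, Ripor2 with 11623 bp, Islr2 with 5452 bp, Smug1 with 4268 bp and Mical2, an actin-oxidising enzyme gene, with 4249 bp. At Skap2 the OPC marks shared only 9 bp and an NSC H3K27me3 peak lay 1046 bp away. At Mical2 the nearest was 216801 bp away. Domains of each outcome thus included both isolated ones and ones beside H3K27me3 already listed in NSCs.

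OLIG2, the basic helix-loop-helix factor that specifies the oligodendrocyte lineage, binds E-boxes. Its OPC peaks overlapped 66 gained domains (8.37%, 6.53 to 10.5) and its NFO peaks 83 (10.5%, 8.47 to 12.9). Either was found at 122 (15.5%) and both at 27 (3.42%). The background over all OPC bivalent domains was 7.78% for OPC and 10.9% for NFO OLIG2, so the share of gained domains lay near it. Kept domains had 9.38% and 13.4%, and K4-only peaks 5.19% (4.81 to 5.59) and 5.51% (5.13 to 5.92). The K4-only shares were measured over the H3K4me3 peak and not a merged domain. Over their H3K4me3 peaks alone, gained domains had 7.98% (6.19 to 10.1) and 10.0% (8.01 to 12.3). Because the regions differ in width, peaks were also counted per Mb. There were 47.6 OPC and 58.5 NFO OLIG2 peaks per Mb in gained domains, 20.96 and 31.2 in kept domains, 37.3 and 61.1 in domains over neither NSC mark and 39.4 and 42.1 in K4-only peaks. Over all OPC bivalent domains there were 28.2 and 40.2 per Mb, so per Mb the gained domains lay above this background. These densities count all listed peaks. At gained domains 87.1% of the OPC and 75.6% of the NFO OLIG2 peaks held a run of A or T, and densities without such peaks were not computed.

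OLIG2 peaks were found mostly at the gained domains that had H3K4me3 in NFOs. With H3K4me3 alone in NFOs, 45 of 336 had an OPC OLIG2 peak (13.4%, 9.94 to 17.5) and 56 an NFO one (16.7%, 12.8 to 21.1). With both NFO marks the shares were 7.52% and 10.6%, and with neither 2.68% for each. With H3K27me3 alone, 1 of 115 had an OPC peak (0.870%) and 0 an NFO peak, for which the exact interval reaches 3.16%. These shares rest on peaks whose sequence is described next.

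Sequences under 6 of the strongest OLIG2 peaks of gained domains are shown because they bear on every count of OLIG2 peaks. Each is 160 bases of the mm10 (GRCm38) plus strand near the summit, free of annotated untranslated sequence, with E-boxes (CAGCTG, and CAGATG or its reverse complement CATCTG) and runs of at least 12 A or T in capitals. The peaks near Gm38868 and at Gm11379 were outside the annotated gene bodies and the others were intronic.
near Gad1 (chr2:70558189-70558348): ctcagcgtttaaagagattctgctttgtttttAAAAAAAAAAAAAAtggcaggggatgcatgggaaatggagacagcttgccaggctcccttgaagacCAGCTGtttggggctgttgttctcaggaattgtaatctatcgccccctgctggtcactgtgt
near Gm38868 (chr6:100438774-100438933): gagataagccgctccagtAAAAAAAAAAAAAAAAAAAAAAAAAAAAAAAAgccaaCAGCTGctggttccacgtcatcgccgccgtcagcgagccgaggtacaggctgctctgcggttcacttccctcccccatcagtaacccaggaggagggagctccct
Tspan12 (chr6:21852192-21852351): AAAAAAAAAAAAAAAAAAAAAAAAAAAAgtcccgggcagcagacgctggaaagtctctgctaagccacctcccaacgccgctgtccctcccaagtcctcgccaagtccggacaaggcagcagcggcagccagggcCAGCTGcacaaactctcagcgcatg
Nr4a2 (chr2:57116617-57116776): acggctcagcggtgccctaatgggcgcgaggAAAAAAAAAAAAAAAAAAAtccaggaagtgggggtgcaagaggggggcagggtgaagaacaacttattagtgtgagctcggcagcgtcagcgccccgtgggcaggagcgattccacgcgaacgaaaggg
Gm11379 (chr13:31797345-31797504): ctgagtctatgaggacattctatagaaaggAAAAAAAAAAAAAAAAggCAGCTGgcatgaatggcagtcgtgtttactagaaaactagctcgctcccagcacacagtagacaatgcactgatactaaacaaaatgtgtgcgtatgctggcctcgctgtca
Icam5 (chr9:21033862-21034021): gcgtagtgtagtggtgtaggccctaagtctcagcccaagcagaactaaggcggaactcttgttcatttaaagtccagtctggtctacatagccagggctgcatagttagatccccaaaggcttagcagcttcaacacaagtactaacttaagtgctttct
Each window but that of Icam5 held a run of A, and 4 of these 5 also held CAGCTG. The windows at Nectin3, Mir670hg and Rpgrip1, which are not shown, each held a run of A and no E-box. The windows shown thus hold E-boxes more often than the full set. The Icam5 window held neither.

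The strongest OLIG2 peak at a gained domain lay in Gad1, the gene of a GABA-synthesising enzyme, 3026 bp from its nearest TSS (chr2:70558235-70559015), with a fold enrichment of 62.7 in OPCs and 72.4 in NFOs. That domain had 258 bp of H3K4me3 inside 781 bp of H3K27me3 in OPCs and neither mark in NFOs. In OPCs there followed Nectin3, a cell adhesion gene (38.1), Sox9 (36.0), the domain near Gm38868 (35.1), the tetraspanin gene Tspan12 (31.4), Lingo4 (30.3), Mir670hg (28.4) and the nuclear receptor gene Nr4a2 (26.99). All of these 7 had H3K4me3 alone in NFOs, and their OPC H3K27me3 was 173 to 795 bp wide. In NFOs the Gad1 domain was followed by the domain near Gm38868 (50.3), Tspan12 (42.1), the zinc finger factor gene Zfp521 (32.4), Icam5 (24.4), Gm11379 (21.95), Rpgrip1 (20.3) and Ttc39a (19.5). No NFO OLIG2 peak was listed at Nr4a2 and no OPC one at Icam5, Gm11379 or Ttc39a.

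Runs of A or T were common under OLIG2 peaks in general. A run of at least 12 lay within 100 bp of the summit in 61 of the 70 OPC OLIG2 peaks at gained domains (87.1%, 77.0 to 93.9) and in 65 of the 86 NFO ones (75.6%, 65.1 to 84.2). The shares were 63.2% and 60.4% of the other OLIG2 peaks, 5.84% of 200 bp windows at the centre of the H3K4me3 peaks of gained domains, 1.80% of those of K4-only peaks and 2.38% of windows along the genome. Such H3K4me3 windows held a run in 7.57% of kept domains, 8.22% of domains over neither NSC mark and 6.98% of those over NSC H3K27me3 alone. An E-box was found in 25.7% (16.0 to 37.6) of the OPC and 16.3% (9.20 to 25.8) of the NFO OLIG2 peaks at gained domains, against 26.98% and 22.4% of the other OLIG2 peaks, 17.8% of the H3K4me3 windows of gained domains and 20.9% of windows along the genome.

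With the OLIG2 peaks that lacked a run, a setting chosen after seeing the data, 9 gained domains had an OPC OLIG2 peak (1.14%, 0.523 to 2.15) and 21 an NFO one (2.66%, 1.65 to 4.04). The shares were 3.28% (2.19 to 4.71) and 5.04% in kept domains and 1.65% (1.44 to 1.89) and 1.72% (1.51 to 1.96) in K4-only peaks. The K4-only shares were again measured over the H3K4me3 peak and not a merged domain. The OPC intervals of gained domains and K4-only peaks then overlapped, which they did not with all peaks, and the NFO share of gained domains was still the higher, with intervals that overlapped. By NFO state, such OPC peaks were at 2 of 336 gained domains with H3K4me3 alone (0.595%), 4 of 226 with both marks (1.77%), 1 of 115 with H3K27me3 alone and 2 of 112 with neither, so the higher OPC share with H3K4me3 alone was not seen among them. Such NFO peaks were at 12 of 336 (3.57%), 8 of 226 (3.54%), 0 of 115 and 1 of 112. Whether peaks at such runs mark bound OLIG2 was not tested.

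**Figure D5:**
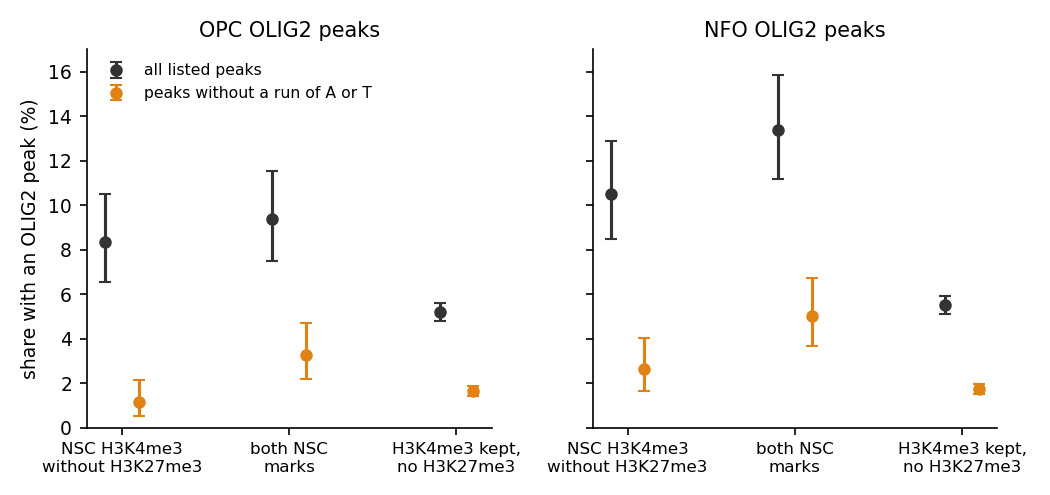
Share of gained domains, kept domains and K4-only peaks that overlap an OLIG2 peak of OPCs (left) or NFOs (right), in percent with exact binomial 95% intervals, for all listed peaks in black and for peaks without a run of at least 12 A or T in orange. At gained domains the share falls from 8.37% to 1.14% in OPCs and from 10.5% to 2.66% in NFOs. K4-only peaks were measured over the H3K4me3 peak and not a merged domain.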

How the data were processed

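Peak lists from ChIP-Seq were used, 1 library each for both histone marks in the 3 cell types and for OLIG2 in OPCs and NFOs (8 of 13 samples). The authors aligned reads to mm10 with Bowtie2, called histone peaks with MACS2 in its broad mode and OLIG2 peaks with SPP, and removed blacklisted regions, with versions not given in the sources used here. The deposited lists give each peak's fold enrichment over input, a ratio, and −log10 values of its p and FDR, as the authors' callers wrote them. The lists hold peaks below the filter of the methods (FDR below 0.05, fold enrichment above 3.5 for histone marks and 5 for OLIG2), and all listed peaks were used. They give no read counts, so the depth of each library is unknown and an unlisted peak does not show that a mark was absent. Inputs and the 2 RIP samples were not used here, and NSC OLIG2 was not analysed here.

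Overlaps, domains and shares were computed in Python 3.11.15 with pandas 2.3.3, NumPy 2.4.6 and SciPy 1.17.1 and figures with Matplotlib 3.10.9. The overlap code was tested on simulated data. A domain was named by genes with a TSS within 2 kb (GENCODE M21 and RefSeq lncRNAs). The genes named were those of the longest OPC and NFO overlaps, the strongest OLIG2 peaks, the widest NFO H3K27me3, the limits of the rule and the gene lists. The domains and lists were chosen with earlier results of these data known. Alternatives were the stated filter, a stricter one, an overlap of 200 bp, no NSC H3K27me3 within 5 kb, OPC H3K27me3 of at least 1 kb, a 1 kb TSS distance, protein-coding genes alone, H3K4me3 peaks as the window and OLIG2 within 1 kb. Sequence was read from GRCm38. Some genes and 1 sequence are not reported here.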

Additional observations from a re-analysis of the deposited data

How the results depend on the processing

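No paired analysis was possible because each group had 1 library, and for the same reason no replicate could be left out. Under other settings, 24 results stayed within 1.5 times a count or inside the interval of a share, and another 27 are given here. With the filter of the methods there were 670 gained domains. Only 542 of the 789 had all 3 defining marks past it, so the 670 were not all among the 789. The share of gained domains with a TSS was then 83.0% and with NFO H3K27me3 47.2%. With fold enrichment above 5 (10 for OLIG2) there were 355 domains and 433 genes, and the shares were 84.8% with a TSS, 3.94% with OPC OLIG2, 7.61% with NFO OLIG2, 83.1% with NFO H3K4me3 and 31.8% with NFO H3K27me3. NFO H3K27me3 stayed above these values at kept domains, at 80.2% and 72.9% under the 2 filters. Kept domains numbered 572 and 155 under them, fewer than gained domains, whereas with all listed peaks they were the more numerous. With 200 bp of overlap there were 421 domains and 417 genes, and the shares were 76.0% with a TSS, 13.5% with NFO OLIG2, 77.9% with NFO H3K4me3, 53.4% with NFO H3K27me3 and 39.0% with both NFO marks. With OPC H3K27me3 of at least 1 kb there were 215 domains and 237 genes, and the shares were 83.3% with a TSS, 6.05% with OPC OLIG2, 7.44% with NFO OLIG2, 57.2% with NFO H3K4me3, 83.3% with NFO H3K27me3 and 48.4% with both NFO marks. The share with a TSS was 75.9% at 1 kb and 72.6% for protein-coding genes. NFO H3K27me3 was at 37.9% over the H3K4me3 peaks alone. Of the alternatives chosen after seeing the data, OLIG2 peaks without a run of A or T gave 1.14% for OPCs and 2.66% for NFOs, and leaving out domains with a run gave 47.3% for NFO H3K27me3. The shares with NFO marks thus moved with the width required of OPC H3K27me3 and with the fold enrichment required of all lists together, which also drops NSC H3K27me3 peaks, and the cause was not tested. Depth limits what an unlisted peak can mean.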

Other observations

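Further developmental regulators lay at gained domains, and those named here were chosen after their values were seen. Pou3f3 and Nr2f1, transcription factors of the cortex, had among the widest H3K4me3, 13533 and 8470 bp, with H3K27me3 of only 545 and 485 bp, and H3K4me3 alone in NFOs. Prox1, a homeobox factor of differentiating neural cells, and Sall1, a zinc finger factor, had H3K27me3 of 3650 and 1927 bp and both marks in NFOs. Their nearest NSC H3K27me3 peaks lay 125680 and 7937 bp away. The Notch ligand gene Dll4 had H3K27me3 of 2726 bp over a 187 bp H3K4me3 peak, with H3K27me3 alone in NFOs at 3.72, whereas the receptor gene Notch3 had marks of 283 and 215 bp and H3K4me3 alone in NFOs at 16.8.

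No gene of the microglial and endothelial list lay at a gained domain. Of genes outside the lists, also chosen after their values were seen, Ikzf1 and Irf5, lymphoid and myeloid factor genes, and the cytokine receptor gene Il10ra had OPC H3K4me3 at 4.91, 4.39 and 4.80 by fold enrichment and H3K27me3 at 3.98, 4.57 and 3.04. All 3 had NSC H3K4me3 (3.29, 4.50 and 3.97) and H3K27me3 alone in NFOs (3.28, 3.94 and 3.78). Irf4 had both marks in NFOs. OPC and NFO suspensions were depleted of microglia on a plate, and the part of remaining microglia was not tested. Tet1, which encodes a DNA demethylase, had OPC H3K27me3 at 7.45, both marks in NFOs and an NFO OLIG2 peak at 8.84.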
